A study of Mus musculus with 8 samples.

Results

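The 4 FGF receptor genes Fgfr1, Fgfr2, Fgfr3 and Fgfr4 and the 5 ligand genes Fgf2, Fgf8, Fgf9, Fgf10 and Fgf18 were described in the peak lists of an immunoprecipitation labelled H3K27me3, from mouse chondrocytes. These 9 genes, of 21779 protein-coding genes in the RefSeq table of GRCm38.p6, were given by name, and a peak was assigned to a gene when it lay over it or within 5 kb of either of its ends. Fibroblast growth factors (FGFs) are secreted ligands that bind receptor tyrosine kinases at the cell surface, with heparan sulfate as a cofactor. In the growth plate, the cartilage that lengthens bones, signalling through Fgfr3 restrains the proliferation of chondrocytes. Trimethylation of histone H3 at lysine 27 (H3K27me3) is a mark that Ezh2, the enzyme of the Polycomb complex, writes and that the demethylases Utx and Jmjd3 erase.

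The samples were chondrocytes from mouse cartilage, kept in DMEM with serum, of the genotypes Ezh2-Cko, Utx-cKO, Jmjd3-Cko and Wild type. The first 3 carry a conditional deletion of the named gene, and the study asked how the mark differs from Wild type in each. Each genotype had 1 ChIP library and 1 input library, so no difference has a replicate check and none was tested. The labels name cartilage, not the growth plate, and the sources used here do not give the driver of the deletion or the age and number of animals. Library titles began with 190327 for Ezh2-Cko, with 190117 for both Utx-cKO and Jmjd3-Cko, and with 190115 for Wild type. Genotype and this prefix cannot be told apart, apart from the pair that shares one.

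The ChIP libraries held between 25655346 and 34786292 fragments after duplicates were removed, and the inputs between 16599532 and 24041619. The lists held 33739 peaks in Ezh2-Cko, 49405 in Utx-cKO, 27013 in Jmjd3-Cko and 28057 in Wild type. They covered 48.1 Mb in Ezh2-Cko, 74.3 Mb in Utx-cKO, 41.4 Mb in Jmjd3-Cko and 40.5 Mb in Wild type. Depth and list length differ between genotypes, and their part in the widths below was not tested. Ezh2-Cko and Utx-cKO were close in depth, with 34786292 and 34359111 ChIP fragments, and differed in list length. The authors' fold enrichment of a peak over its own input ranks peaks within a list. Its percentile in that list is given here, and percentiles of different lists show no change. Of all protein-coding genes, 71.0% had a peak over or within 5 kb in Ezh2-Cko, 73.8% in Utx-cKO, 69.3% in Jmjd3-Cko and 69.0% in Wild type. All 12 genes that mark chondrocytes had a peak in each knockout list and 11 of them in Wild type, where Chad had none. Of 4 skeletal muscle genes, 1 had a peak in Ezh2-Cko, 3 in Utx-cKO, 1 in Jmjd3-Cko and 1 in Wild type, and Myod1 had none in any list. Of 4 endothelial genes 2 had a peak in every list, and Cdh5 and Tek had none. Of 3 blood genes, 2 had a peak in Ezh2-Cko, 3 in Utx-cKO, 2 in Jmjd3-Cko and 1 in Wild type, and Spi1 had one in every list. All 6 housekeeping genes had a peak of fold enrichment of at least 4 in every list. Of 6 genes that Polycomb silences in most tissues, 1 had such a peak in Ezh2-Cko, 3 in Utx-cKO, 2 in Jmjd3-Cko and 1 in Wild type. The share of all genes with a peak this strong was 59.4% in Ezh2-Cko, 63.7% in Utx-cKO, 60.6% in Jmjd3-Cko and 56.8% in Wild type. Which mark the peaks carry was not tested, and a peak is not read here as repression.

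Start sites were known for 7 of the 9 genes. Promoters of 6 of them are shown, because the peaks below are placed against these start sites and the promoters span from few to many CpG. A CpG is a C followed by a G, the target of DNA methylation. Each holds 250 bases before the start site and 30 from it on, 5′ to 3′, from RefSeq on GRCm38.p6, with CpG in capitals.
Fgfr2 (chr7:130266779-130267058, - strand): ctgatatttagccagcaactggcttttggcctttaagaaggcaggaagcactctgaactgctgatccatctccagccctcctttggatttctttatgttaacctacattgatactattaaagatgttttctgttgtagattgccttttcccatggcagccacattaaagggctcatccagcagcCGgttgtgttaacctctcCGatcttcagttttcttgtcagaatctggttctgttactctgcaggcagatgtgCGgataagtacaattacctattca
Fgfr4 (chr13:55152568-55152847, + strand): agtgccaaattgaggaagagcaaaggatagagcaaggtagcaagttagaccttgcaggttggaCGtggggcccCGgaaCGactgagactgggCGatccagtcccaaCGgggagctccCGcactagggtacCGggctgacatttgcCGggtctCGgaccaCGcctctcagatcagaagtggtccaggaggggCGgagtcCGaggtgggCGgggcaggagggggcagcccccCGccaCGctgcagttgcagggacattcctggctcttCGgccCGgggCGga
Fgf2 (chr3:37348403-37348682, + strand): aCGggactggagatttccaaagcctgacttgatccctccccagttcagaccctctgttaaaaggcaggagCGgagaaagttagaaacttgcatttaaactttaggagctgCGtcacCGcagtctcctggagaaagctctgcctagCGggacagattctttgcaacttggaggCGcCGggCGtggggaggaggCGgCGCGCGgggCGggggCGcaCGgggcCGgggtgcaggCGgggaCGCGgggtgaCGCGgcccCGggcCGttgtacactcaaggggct
Fgf9 (chr14:58072436-58072715, + strand): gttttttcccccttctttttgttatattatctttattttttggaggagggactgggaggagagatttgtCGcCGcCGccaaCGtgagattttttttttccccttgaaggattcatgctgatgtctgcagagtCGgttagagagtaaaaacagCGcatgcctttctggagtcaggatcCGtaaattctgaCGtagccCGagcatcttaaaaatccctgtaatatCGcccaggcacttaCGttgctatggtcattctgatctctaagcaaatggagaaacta
Fgf10 (chr13:118714449-118714728, + strand): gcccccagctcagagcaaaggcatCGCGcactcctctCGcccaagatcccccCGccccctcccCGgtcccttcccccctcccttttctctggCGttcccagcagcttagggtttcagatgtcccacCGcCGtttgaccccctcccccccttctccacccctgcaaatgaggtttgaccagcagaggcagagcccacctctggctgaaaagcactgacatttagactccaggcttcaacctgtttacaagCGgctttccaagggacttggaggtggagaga
Fgf18 (chr11:33147371-33147650, - strand): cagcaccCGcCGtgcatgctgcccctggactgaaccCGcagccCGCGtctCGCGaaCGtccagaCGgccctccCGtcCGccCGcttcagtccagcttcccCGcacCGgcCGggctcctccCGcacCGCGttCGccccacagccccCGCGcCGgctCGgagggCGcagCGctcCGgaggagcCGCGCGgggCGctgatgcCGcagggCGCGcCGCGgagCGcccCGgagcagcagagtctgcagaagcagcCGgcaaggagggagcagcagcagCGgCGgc
Over 21263 promoters of protein-coding genes the median was 12 CpG and 56.1% G and C in the same 280 bases. Fgfr2 had 3 CpG and 43.2% G and C, the lowest CpG count of these 7 genes. Fgf18 had 40 CpG and 77.1%, the highest of the 7 and the 96.5th percentile of all promoters. Between them lay Fgf10 with 9, Fgf9 with 11, Fgfr4 with 18, both start sites of Fgfr3 with 22 and 27, and Fgf2 with 23 CpG. CpG content was read on both strands at once, since CG is its own complement.

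All 4 receptors and all 5 ligands had a peak in every list. Such a peak was common over all genes, at 71.0% in Ezh2-Cko, 73.8% in Utx-cKO, 69.3% in Jmjd3-Cko, 69.0% in Wild type and 66.8% in all 4 lists, so presence alone sets these genes little apart. With fold enrichment of at least 4, the 4 receptors were still present in each list. Of the 5 ligands 4 passed in Ezh2-Cko, 5 in Utx-cKO, 5 in Jmjd3-Cko and 3 in Wild type. The share over all genes was 59.4% in Ezh2-Cko, 63.7% in Utx-cKO, 60.6% in Jmjd3-Cko and 56.8% in Wild type. The ligands that did not pass were Fgf9 in Ezh2-Cko and both Fgf8 and Fgf9 in Wild type. A peak covered the start site of 5 of the 7 genes with a known start site in Ezh2-Cko and of 6 in each of the other 3 lists. The share over all genes was 59.0% in Ezh2-Cko, 61.7% in Utx-cKO, 58.4% in Jmjd3-Cko, 57.0% in Wild type and 54.9% in all 4 lists.

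Receptors lay above ligands in median rank and median width, with overlap between single genes. The median percentile of the strongest peak was 84.7 over receptors and 67.4 over ligands in Ezh2-Cko, 90.5 and 82.0 in Utx-cKO, 88.3 and 61.0 for Jmjd3-Cko, and 87.2 and 60.2 for Wild type. The same median over all genes with a peak was 81.5 in Ezh2-Cko, 87.0 in Utx-cKO, 77.2 in Jmjd3-Cko and 78.2 in Wild type. The receptor median lay above it and the ligand median below it in each list. Single genes differed: Fgfr4 lay below the all-gene median in every list, and Fgfr3 did so in Ezh2-Cko at 77.3 and Utx-cKO at 82.7. Fgf2 lay above it in every list, and Fgf8 in the 3 knockout lists. Fgfr4 ranked below Fgf2 and Fgf8 in all 3 knockout lists, and in Wild type it ranked below Fgf2 and Fgf18. Without the peak over the start of a neighbouring gene, described below, Fgf8 ranked at 62.7 for Ezh2-Cko, 76.6 for Utx-cKO and 64.3 for Jmjd3-Cko, below Fgfr4 in each. Fgf2 stood at the other edge, and in Jmjd3-Cko its peak outranked all 4 receptors.

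**Figure D1:**
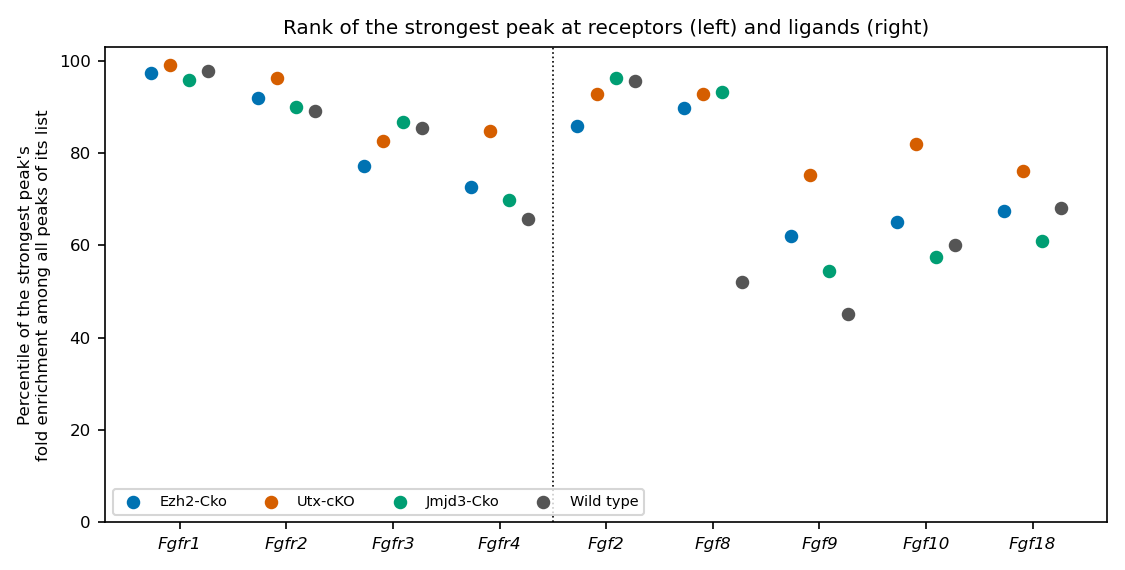
Percentile of the strongest peak of each gene by fold enrichment within its own list, by genotype, with receptors and ligands apart. Receptor medians lay between 84.7 and 90.5 and ligand medians between 60.2 and 82.0; the 3 knockout points of Fgf8 rest on a peak over the start of Npm3.

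The bases covered by peaks gave a wider gap. The median cover of receptors was 12447 bp in Ezh2-Cko, 17962.5 bp in Utx-cKO, 9228.5 bp in Jmjd3-Cko and 8539.5 bp in Wild type. The median of ligands was 3962 bp in Ezh2-Cko, 5489 bp in Utx-cKO, 3679 bp in Jmjd3-Cko and 3052 bp in Wild type. The median of all genes with a peak was 2758.5 bp in Ezh2-Cko, 3620 bp in Utx-cKO, 2468 bp in Jmjd3-Cko and 2450 bp in Wild type. In each list the receptor median thus exceeded the ligand median, which exceeded that of all genes. As a share of the window, receptors had a median of 20.7% in Ezh2-Cko, 28.7% in Utx-cKO, 16.3% in Jmjd3-Cko and 18.4% in Wild type. Ligands had a median of 8.95% in Ezh2-Cko, 12.4% in Utx-cKO, 8.57% in Jmjd3-Cko and 4.5% in Wild type, and all genes with a peak had 7.1% in Ezh2-Cko, 9.49% in Utx-cKO, 6.51% in Jmjd3-Cko and 6.34% in Wild type. By this share the ligand median of Wild type lay below that of all genes, and those of the 3 knockouts above it. The Wild type median is the value of Fgf8, whose knockout cover includes part of the Npm3 peak described below. Without that peak Fgf8 had 1164 bp of its 16451 bp window in Ezh2-Cko. This brings the Ezh2-Cko ligand median down to about the 7.1% of all genes. Fgfr4 went against the receptor median, with less cover than the ligands Fgf9, Fgf10 and Fgf18 in every list. Within 5 kb of the known start sites, the medians lay closer together. These were 4 start sites of 3 receptors and 4 start sites of 4 ligands. Both start sites of Fgfr3 enter the receptor medians, with windows that largely overlap. Receptors had 5309.5 bp in Ezh2-Cko, 5885 bp in Utx-cKO, 3880 bp in Jmjd3-Cko and 3631.5 bp in Wild type. Ligands had 3360 bp in Ezh2-Cko, 4630 bp in Utx-cKO, 3813 bp in Jmjd3-Cko and 2596 bp in Wild type. In Jmjd3-Cko the start sites of Fgfr3 had 3649 and 4111 bp, on either side of the ligand median. Which class is higher there thus depends on how Fgfr3 is counted. Fgfr1 and Fgf8 are not in these medians.

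**Figure D2:**
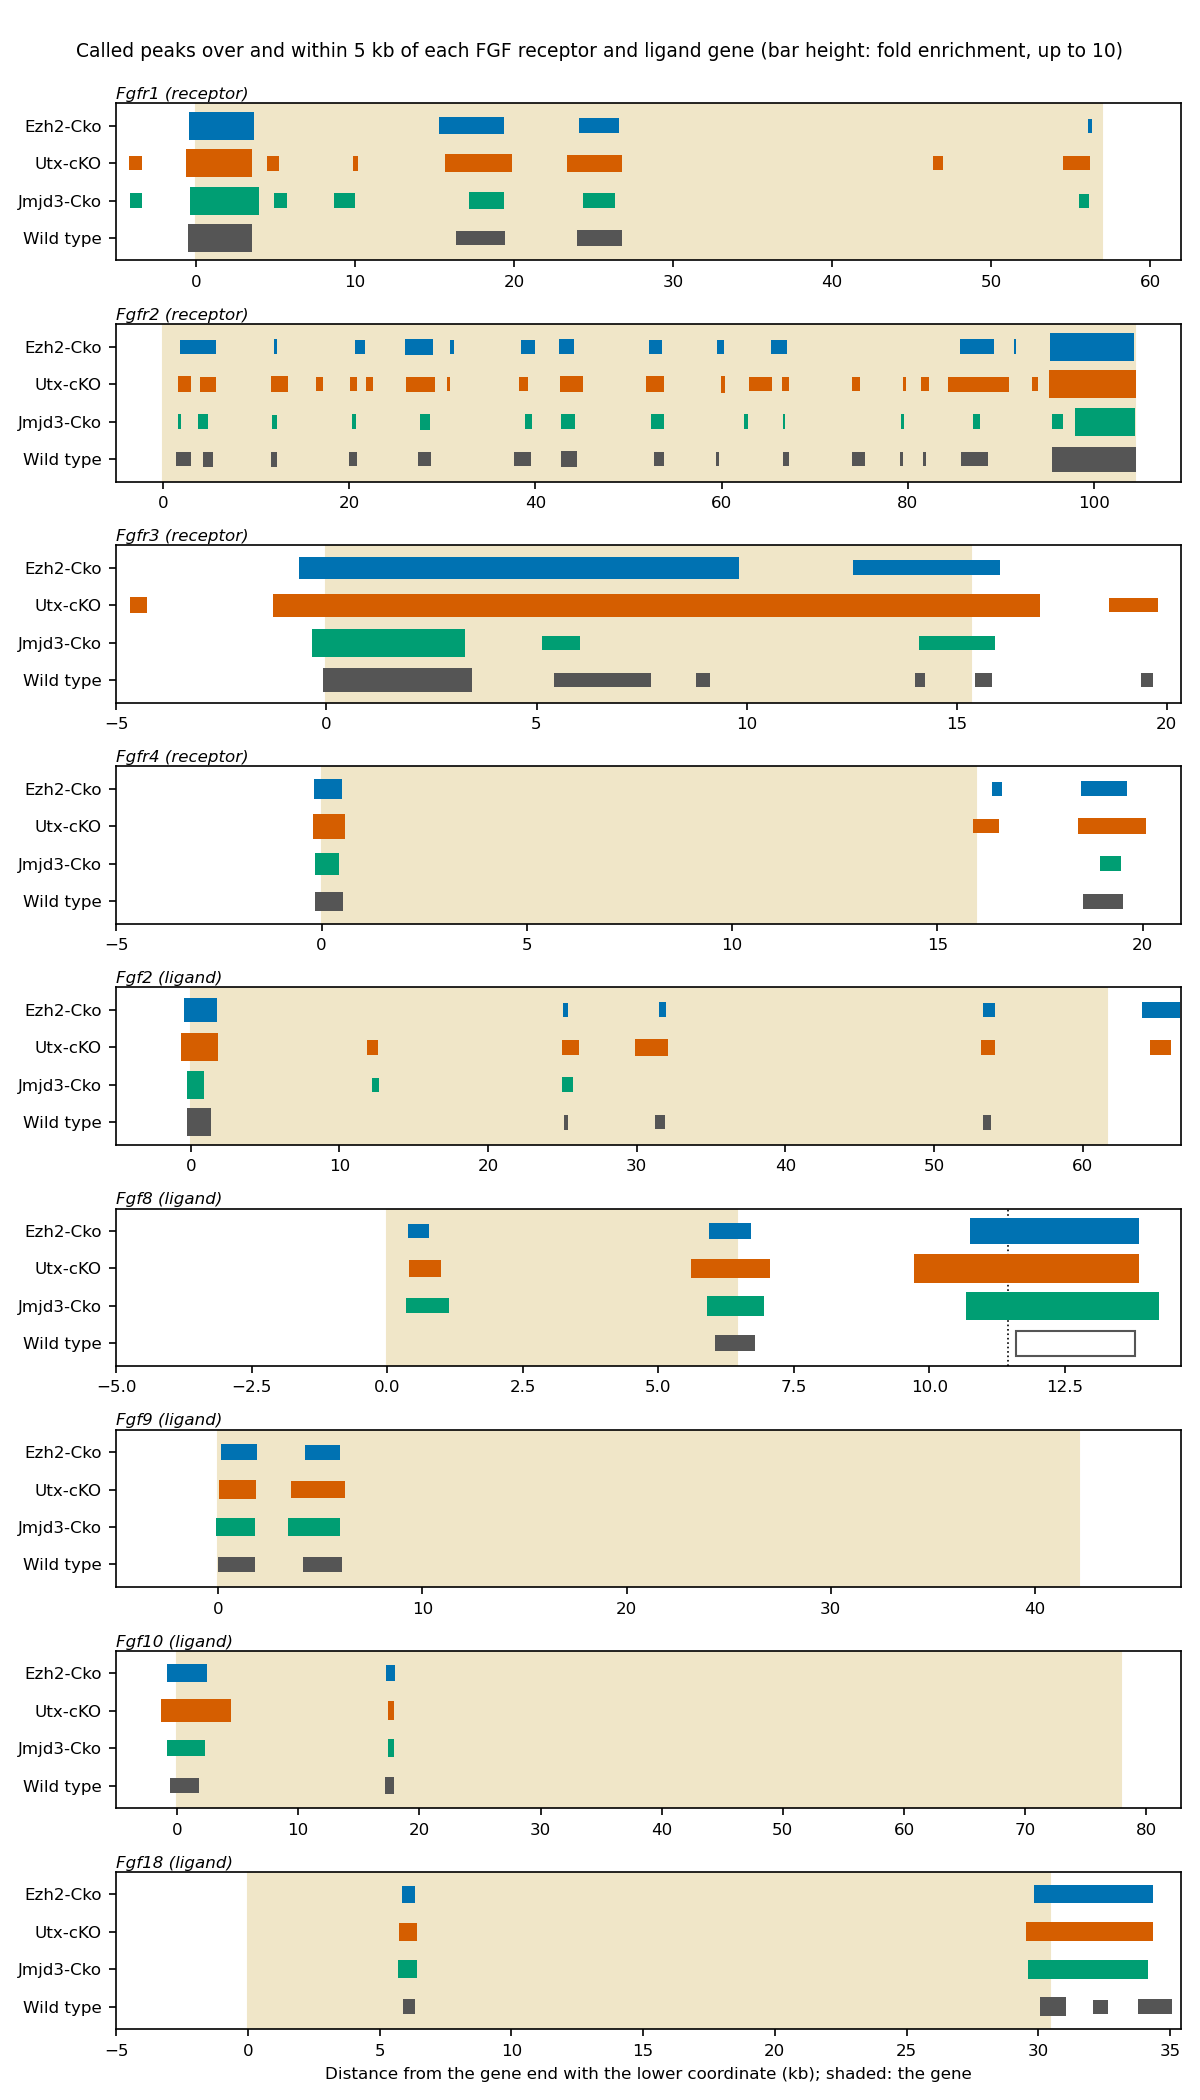
Called peaks along each gene by genotype, against the distance in kb from the gene end with the lower coordinate; shading marks the gene, bar height the fold enrichment up to 10. Peaks gather at 1 end of most genes, Fgfr2 is covered by many short peaks, and the open bar at Fgf8 is the Wild type peak that begins 5157 bp from the gene, beyond the dotted edge of the window.

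Fgfr1, a receptor known in growth plates mainly from hypertrophic chondrocytes, lies on chromosome 8 at 25518759 to 25575718. Its strongest peak had a fold enrichment of 12.6 in Ezh2-Cko, 16.7 in Utx-cKO, 14.4 in Jmjd3-Cko and 12.0 in Wild type. That peak ranked at the 97.4th percentile in Ezh2-Cko, 99.2nd percentile in Utx-cKO, 95.8th percentile in Jmjd3-Cko and 97.7th percentile in Wild type. This was the highest rank of the 9 genes in each list but Jmjd3-Cko, where Fgf2 stood at 96.3. The peak spanned the lower end of the gene in all 4 lists and hardly differed in length, with 4083 bp in Ezh2-Cko, 4155 bp in Utx-cKO, 4324 bp in Jmjd3-Cko and 4038 bp in Wild type. A pair of peaks inside the gene was also in all 4 lists, with fold enrichment between 2.84 and 4.41. Further short peaks brought the number to 4 in Ezh2-Cko, to 8 in Utx-cKO and to 7 in Jmjd3-Cko, against 3 in Wild type. Cover was 10917 bp in Ezh2-Cko, 16084 bp in Utx-cKO, 12073 bp in Jmjd3-Cko and 9942 bp in Wild type. The peak at the upper end of the gene, in the 3 knockout lists, also lay within 5 kb of Letm2.

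Fgfr2, a receptor of the skeletal mesenchyme and perichondrium, lies on chromosome 7 at 130162451 to 130266808 and starts at the higher coordinate. Its strongest peak was a domain that ran from the start site into the gene, 9079 bp long in Ezh2-Cko, 9326 bp in Utx-cKO, 6398 bp in Jmjd3-Cko and 8961 bp in Wild type. The domain was among the longest of each list, at the 98.7th to 99.7th percentile of length, and at most its outer edge lay in the promoter with 3 CpG shown above. Its fold enrichment was 9.88 in Ezh2-Cko, 13.0 in Utx-cKO, 11.3 in Jmjd3-Cko and 8.37 in Wild type. It covered the start site in 3 lists and ended 45 bp short of it in Ezh2-Cko. Inside the gene lay 12 more peaks in Ezh2-Cko, 19 in Utx-cKO, 13 in Jmjd3-Cko and 14 in Wild type, all with fold enrichment between 2.26 and 3.9. With them Fgfr2 had the largest cover of the 9 genes in every list, 28654 bp in Ezh2-Cko, 38151 bp in Utx-cKO, 16598 bp in Jmjd3-Cko and 25089 bp in Wild type. Within 5 kb of the start site, cover was between 4956 and 5111 bp in the 4 lists. In each list the domain filled nearly all of the 5 kb inside the gene, and no separate peak lay before the start. This narrow range is therefore set by the window and does not compare the lists near the start. The differences in cover of the whole gene lay further inside it.

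Fgfr3, the receptor whose activating mutations cause achondroplasia in humans, lies on chromosome 5 at 33721724 to 33737068. The peak over its start sites was 10493 bp long in Ezh2-Cko, 18278 bp in Utx-cKO, 3649 bp in Jmjd3-Cko and 3547 bp in Wild type. In Utx-cKO that single domain, at 33720441 to 33738718, spanned the whole gene. In Wild type the same stretch held 5 separate peaks, 4 of them with fold enrichment between 2.2 and 2.43. Fold enrichment of the peak over the start did not follow its length, with 6.53 in Ezh2-Cko, 7.33 in Utx-cKO, 10.3 in Jmjd3-Cko and 7.62 in Wild type. Cover of the window was 13977 bp in Ezh2-Cko, 19841 bp in Utx-cKO, 6384 bp in Jmjd3-Cko and 7137 bp in Wild type. Peaks at the upper end of the gene lay within 5 kb of Letm1 in all 4 lists.

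Fgfr4, a receptor known best from liver and muscle, lies on chromosome 13 at 55152818 to 55168759 and was the least covered receptor. The peak over its start site was 685 bp long in Ezh2-Cko, 783 bp in Utx-cKO, 584 bp in Jmjd3-Cko and 682 bp in Wild type. The fold enrichment of that peak was 5.69 in Ezh2-Cko, 8.02 in Utx-cKO, 6.81 in Jmjd3-Cko and 4.9 in Wild type. Peaks within 5 kb of the start site covered less than the median of all start sites, which was 1364 bp in Ezh2-Cko, 1706 bp in Utx-cKO, 1251 bp in Jmjd3-Cko and 1201 bp in Wild type. A second peak beyond the upper end of the gene, with fold enrichment between 2.76 and 3.68, was in all 4 lists. Total cover was 2032 bp in Ezh2-Cko, 3074 bp in Utx-cKO, 1097 bp in Jmjd3-Cko and 1646 bp in Wild type. That was the 35.2nd percentile in Ezh2-Cko, 42.8th percentile in Utx-cKO, 16.4th percentile in Jmjd3-Cko and 30.7th percentile in Wild type, among genes with a peak.

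Among the ligands, Fgf2, which is held in the cartilage matrix, lies on chromosome 3 at 37348477 to 37410106. A compact peak covered its start site, 2207 bp long in Ezh2-Cko, 2474 bp in Utx-cKO, 1137 bp in Jmjd3-Cko and 1570 bp in Wild type. The fold enrichment of this peak was 8.25 in Ezh2-Cko, 11.1 in Utx-cKO, 14.9 in Jmjd3-Cko and 10.5 in Wild type. It ranked at the 85.8th percentile in Ezh2-Cko, 92.9th percentile in Utx-cKO, 96.3rd percentile in Jmjd3-Cko and 95.7th percentile in Wild type. The shortest of the 4 peaks, in Jmjd3-Cko, had the highest fold enrichment. Weak peaks inside and past the gene brought cover to 6409 bp in Ezh2-Cko, 8897 bp in Utx-cKO, 2404 bp in Jmjd3-Cko and 3007 bp in Wild type. The peak past the gene in Ezh2-Cko and Utx-cKO lay within 5 kb of Nudt6, and without the flanks the ratio of Ezh2-Cko to Wild type was 1.24, under the 1.5 that counts as wider below.

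Fgf8, a signal of the apical ridge of the limb bud, lies on chromosome 19 at 45736491 to 45742941, and its values depend on a peak of its neighbour. The strongest peak in its window covered the start of Npm3, for a nucleoplasmin-family protein, and had a fold enrichment of 9.24 in Ezh2-Cko, of 11.1 in Utx-cKO and of 12.7 in Jmjd3-Cko. Wild type had a peak there too, at 45748098 to 45750285 with fold enrichment 8.04, which began 5157 bp from Fgf8 and so fell outside the window. Without peaks over the start of another gene, the strongest fold enrichment at Fgf8 was 3.97 in Ezh2-Cko, 5.26 in Utx-cKO, 5.81 in Jmjd3-Cko and 3.5 in Wild type. Cover was then 1164 bp in Ezh2-Cko, 2064 bp in Utx-cKO, 1848 bp in Jmjd3-Cko and 741 bp in Wild type. With them it was 1864 bp in Ezh2-Cko, 3787 bp in Utx-cKO, 2619 bp in Jmjd3-Cko and 741 bp in Wild type. With and without that peak, cover was largest in Utx-cKO and smallest in Wild type. A peak at the higher end of the gene was in all 4 lists, 771 bp in Ezh2-Cko, 1459 bp in Utx-cKO, 1046 bp in Jmjd3-Cko and 741 bp in Wild type. A short peak inside the gene near its lower end was called in the 3 knockout lists, and not in Wild type. It had 393 bp and fold enrichment 2.94 in Ezh2-Cko, 605 bp and 4.2 in Utx-cKO, and 802 bp and 2.97 in Jmjd3-Cko.

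Fgf9, a ligand that acts on chondrocytes of the growth plate, lies on chromosome 14 at 58070671 to 58112854. It was the one member with a known start site that no list covered. A peak on the upstream side ended 115 bp before the start site in Ezh2-Cko, 163 bp in Utx-cKO, 238 bp in Jmjd3-Cko and 227 bp in Wild type. From the start site to the next peak the distance was 2247 bp in Ezh2-Cko, 1545 bp in Utx-cKO, 1403 bp in Jmjd3-Cko and 2109 bp in Wild type. The upstream peak thus reached into the promoter shown above, and the last bases before the start lay free of a call in each list. That start site lies inside the annotated gene, whose lower end was covered in Jmjd3-Cko and Wild type. The strongest fold enrichment was 3.89 in Ezh2-Cko, 4.86 in Utx-cKO, 4.3 in Jmjd3-Cko and 3.16 in Wild type. It ranked at the 62.0th percentile in Ezh2-Cko, 75.2nd percentile in Utx-cKO, 54.4th percentile in Jmjd3-Cko and 45.1st percentile in Wild type. Cover was 3469 bp in Ezh2-Cko, 4463 bp in Utx-cKO, 4471 bp in Jmjd3-Cko and 3772 bp in Wild type, the narrowest spread of the ligands.

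Fgf10, which limb mesenchyme sends to the overlying ridge, lies on chromosome 13 at 118714699 to 118792573. The peak over its start site was 3251 bp long in Ezh2-Cko, 5815 bp in Utx-cKO, 3155 bp in Jmjd3-Cko and 2361 bp in Wild type. The fold enrichment of this peak was 4.3 in Ezh2-Cko, 7.07 in Utx-cKO, 3.89 in Jmjd3-Cko and 3.18 in Wild type. The peak was longest and strongest in Utx-cKO and shortest and weakest in Wild type. A second, narrow peak, which began between 17194 and 17383 bp inside the gene, was in all 4 lists. Its length was 711 bp in Ezh2-Cko, 519 bp in Utx-cKO, 524 bp in Jmjd3-Cko and 691 bp in Wild type. Its fold enrichment was 3.42 in Ezh2-Cko, 5.23 in Utx-cKO, 4.7 in Jmjd3-Cko and 4.21 in Wild type. It was above the peak at the start in Jmjd3-Cko and Wild type and below it in Ezh2-Cko and Utx-cKO.

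Fgf18, a ligand from the perichondrium that acts through Fgfr3, lies on chromosome 11 at 33116970 to 33147400 and starts at the higher coordinate. The start site, in the promoter with 40 CpG, lay under a domain of 4517 bp in Ezh2-Cko, 4797 bp in Utx-cKO and 4531 bp in Jmjd3-Cko. In Wild type the same stretch held 3 separate peaks of 989, 549 and 1293 bp, the first of them over the start site. Most of this cover lay before the gene, and the peaks there were also within 5 kb of Npm1 in all 4 lists. Inside the gene cover was 1084 bp in Ezh2-Cko, 1568 bp in Utx-cKO, 1512 bp in Jmjd3-Cko and 818 bp in Wild type, which puts the ratio of Ezh2-Cko to Wild type at 1.33, no longer wider. Fold enrichment of the peak over the start was alike in the 4 lists, with 4.69 in Ezh2-Cko, 5.15 in Utx-cKO, 5.26 in Jmjd3-Cko and 5.2 in Wild type. Cover of the window was 5017 bp in Ezh2-Cko, 5489 bp in Utx-cKO, 5237 bp in Jmjd3-Cko and 3296 bp in Wild type. Joining peaks within 3 kb of each other brought Wild type to 5470 bp, against 5017 bp in Ezh2-Cko and 5489 bp in Utx-cKO, so the difference to these lists lay in the gaps between the Wild type peaks. A short peak inside the gene was in all 4 lists, with 500 bp in Ezh2-Cko, 692 bp in Utx-cKO, 706 bp in Jmjd3-Cko and 465 bp in Wild type.

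Cover was called wider in a knockout at 1.5 times the Wild type value or more, and narrower at the inverse or less. In Ezh2-Cko 4 of 9 genes were wider, namely Fgfr3 at 1.96 times, Fgf2 at 2.13, Fgf8 at 2.52 and Fgf18 at 1.52, and none was narrower. Over all genes 19.7% were wider and 3.75% narrower. In Utx-cKO 8 of 9 were wider, with ratios of 1.52 to 5.11, and Fgf9 had 1.18; over all genes 48.3% were wider and 1.45% narrower. Jmjd3-Cko had Fgf8 at 3.53 and Fgf18 at 1.59 as wider, and Fgfr2 at 0.662 and Fgfr4 at 0.666 as narrower. Over all genes 9.48% were wider and 6.98% narrower. Without the Npm3 peak the ratio of Fgf8 was 1.57 for Ezh2-Cko, 2.79 for Utx-cKO and 2.49 for Jmjd3-Cko. Median ratios of receptors were 1.19 for Ezh2-Cko, 1.74 for Utx-cKO and 0.78 for Jmjd3-Cko. Those of ligands were 1.52 for Ezh2-Cko, 2.08 for Utx-cKO and 1.21 for Jmjd3-Cko. Over all genes the medians were 1.11 for Ezh2-Cko, 1.47 for Utx-cKO and 1.02 for Jmjd3-Cko. At the median both classes were above all genes in Ezh2-Cko and Utx-cKO, and in Jmjd3-Cko receptors were below and ligands above. The 3 sets of ratios share the same Wild type list. Of the 14 wider calls 6 held under every alternative tried, namely Fgf8 in all 3 knockouts and Fgfr3, Fgf2 and Fgf10 in Utx-cKO. For Fgf8 this leaves out the alternative of fold enrichment of 4 or more, where Wild type had no peak and gave no ratio. The narrower calls of Fgfr2 and Fgfr4 in Jmjd3-Cko lay close to the limit and neither held: Fgfr2 was at 0.961 with q of 0.001 or less, and Fgfr4 at 0.856 within 2 kb of the gene. With the same number of strongest peaks in each list, the Utx-cKO ratios were 1.22 at Fgfr1, 1.03 at Fgfr2 and 1.48 at Fgfr4, none of them wider. Merging peaks within 3 kb put Fgfr3 in Ezh2-Cko at 1.47 and Fgf18 at 0.917 for Ezh2-Cko, 1.0 for Utx-cKO and 1.19 for Jmjd3-Cko, none of them wider. Alternatives also added calls. At fold enrichment of 4 or more, Fgfr1 was wider at 2.03 for Ezh2-Cko and 1.62 for Jmjd3-Cko, and Fgf10 at 4.7 for Ezh2-Cko. With peaks merged, Fgfr1 was wider at 1.91 for Jmjd3-Cko and Fgfr4 at 2.41 for Ezh2-Cko. With q of 0.001 or less, Fgf2 was narrower at 0.613 for Jmjd3-Cko.

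**Figure D3:**
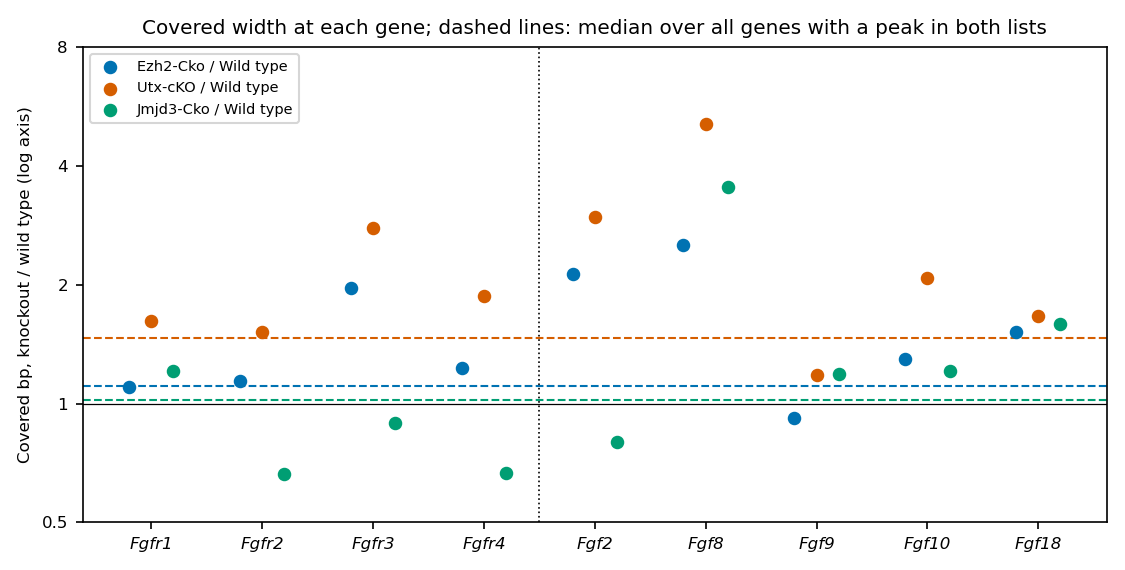
Covered bases of each gene in a knockout over those in Wild type, on a log axis. Dashed lines mark, for each knockout, the median ratio over all genes with a peak in both lists. Utx-cKO points lie highest for all genes but Fgf9, where Jmjd3-Cko is at 1.19 and Utx-cKO at 1.18.

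Within the pair of lists that share a title prefix, Utx-cKO had at least 1.5 times the cover of Jmjd3-Cko at 5 of 9 genes, against 45.9% of all genes. The ratios of Utx-cKO to Jmjd3-Cko were 1.33 at Fgfr1, 2.3 at Fgfr2, 3.11 at Fgfr3 and 2.8 at Fgfr4. Among ligands they were 3.7 at Fgf2, 1.45 at Fgf8, 0.998 at Fgf9, 1.72 at Fgf10 and 1.05 at Fgf18. Median ratios were 2.55 over receptors, 1.45 over ligands and 1.43 over all genes. As counted, the ligand median lay near the general ratio and the receptor median above it. Single genes differed, with Fgfr1 below the general ratio and Fgf2 the highest of the 9. The ligand median is the value of Fgf8, whose cover includes part of the Npm3 peak. Without that peak Fgf8 had 2064 bp in Utx-cKO and 1848 bp in Jmjd3-Cko. Its ratio, and with it the ligand median, then lay below the general ratio of 1.43. The Utx-cKO libraries were also deeper than those of Jmjd3-Cko, with 34359111 ChIP fragments against 25655346.

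Merging the peaks of all lists gave 50 regions over the 9 genes, 35 at receptors and 15 at ligands. Over all genes, counted in the same way, 40.1% of 54721 regions were in all 4 lists and 39.2% in 1 list. Of all 54721 regions 5.59% were in Ezh2-Cko alone, 28.0% in Utx-cKO alone, 2.40% in Jmjd3-Cko alone and 3.23% in Wild type alone. Of the receptor regions 16 were in all 4 lists and 9 in 1 list, namely 2 for Ezh2-Cko, 6 for Utx-cKO and 1 for Jmjd3-Cko. Of the ligand regions 9 were in all 4 lists and none in 1 list. Over the 9 genes together 25 of 50 regions were in all 4 lists and 6 of 50 in Utx-cKO alone. No region was found in Wild type alone, and 3 of 50 were in all 3 knockouts without Wild type, against 3.15% over all genes. Those 3 were the upper end of Fgfr1, the lower end of Fgf8 and the Npm3 start, where Wild type had its peak just past the window.

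Of 51 other genes of the pathway, 50 could be placed; Spry3 was not analysed here. A peak lay at 46 of them in each knockout and at 44 in Wild type. The share over all genes was 71.0% in Ezh2-Cko, 73.8% in Utx-cKO, 69.3% in Jmjd3-Cko and 69.0% in Wild type. Fgf4, Fgf6, Fgf20 and Fgfbp1, the gene of a carrier protein that frees FGFs from the matrix, had none in any list. Fgf3 had a peak of 539 bp in Ezh2-Cko, 618 bp in Utx-cKO and 291 bp in Jmjd3-Cko and none in Wild type. Fgf14, an intracellular relative, likewise had 2457 bp in Ezh2-Cko, 2500 bp in Utx-cKO and 844 bp in Jmjd3-Cko and none in Wild type. Its fold enrichment was at most 2.97.

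Peaks at the other ligands ranked lower at the median than those at adaptors, inhibitors and co-receptors. The 17 other ligands had a median percentile, over those with a peak, of 61.7 in Ezh2-Cko, 72.9 in Utx-cKO, 48.1 in Jmjd3-Cko and 53.0 in Wild type. For 13 co-receptor and binding genes it was 86.6 in Ezh2-Cko, 88.8 in Utx-cKO, 84.2 in Jmjd3-Cko and 87.5 in Wild type. For 9 signal adaptors, which link the receptor to Ras and other pathways, it was 93.5 in Ezh2-Cko, 95.2 in Utx-cKO, 91.1 in Jmjd3-Cko and 93.7 in Wild type. For 8 feedback inhibitors it was 89.3 in Ezh2-Cko, 94.5 in Utx-cKO, 87.0 in Jmjd3-Cko and 89.3 in Wild type. For the 3 target factors Etv1, Etv4 and Etv5 it was 72.7 in Ezh2-Cko, 79.9 in Utx-cKO, 67.0 in Jmjd3-Cko and 59.4 in Wild type. All 9 adaptors and all 8 inhibitors had a peak of fold enrichment of at least 4 in every list. Over all genes the share was 59.4% in Ezh2-Cko, 63.7% in Utx-cKO, 60.6% in Jmjd3-Cko and 56.8% in Wild type.

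**Figure D4:**
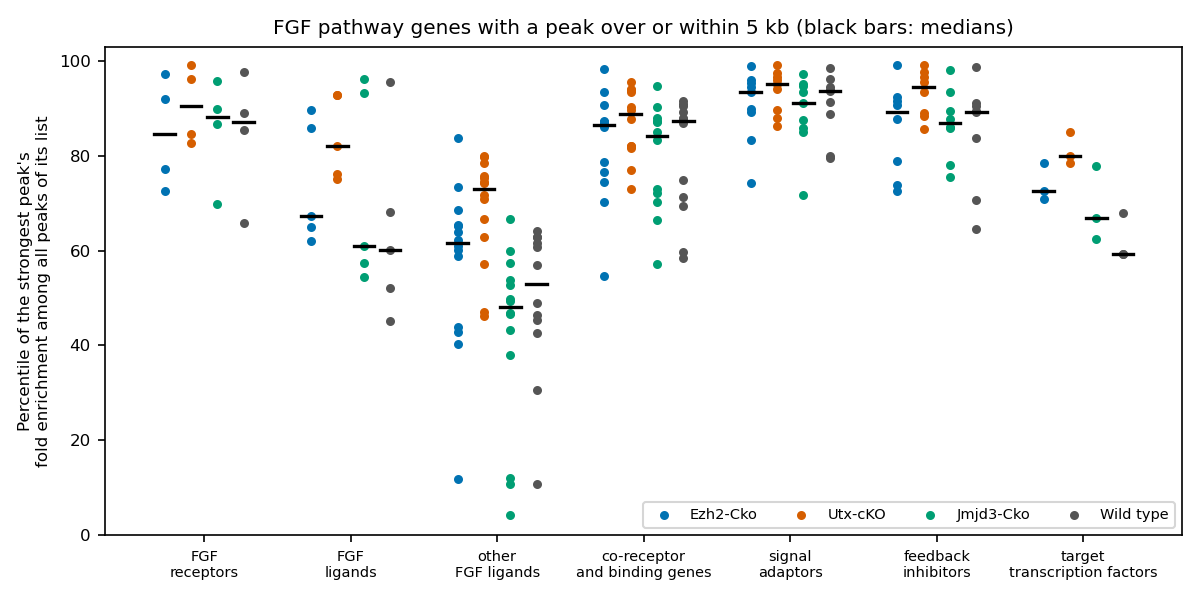
Percentile of the strongest peak by fold enrichment for the genes of each class of the FGF pathway, by genotype. Adaptors have the highest medians, between 91.1 and 95.2, and the other ligands lie between 48.1 and 72.9.

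The 2 genes of each class with the largest Wild type cover had the following values. Frs2, the docking protein that FGF receptors phosphorylate, had 10713 bp in Ezh2-Cko, 14107 bp in Utx-cKO and 12896 bp in Jmjd3-Cko, against 11454 bp in Wild type. The adaptor Gab1 had 10992 bp in Ezh2-Cko, 16848 bp in Utx-cKO, 13174 bp in Jmjd3-Cko and 10977 bp in Wild type. The heparan sulfate carrier Sdc4 had 11986 bp in Ezh2-Cko, 16592 bp in Utx-cKO, 10390 bp in Jmjd3-Cko and 9113 bp in Wild type. Fgfrl1, a decoy-like receptor without a kinase domain, had 9509 bp in Ezh2-Cko, 12920 bp in Utx-cKO, 6718 bp in Jmjd3-Cko and 6972 bp in Wild type. Spry2, an inhibitor of the receptor's Ras signal, had 6356 bp in Ezh2-Cko, 7609 bp in Utx-cKO, 6165 bp in Jmjd3-Cko and 6145 bp in Wild type. The Erk phosphatase Dusp6 had 5244 bp in Ezh2-Cko, 6703 bp in Utx-cKO, 5644 bp in Jmjd3-Cko and 5818 bp in Wild type. Utx-cKO held the most cover at all 6 of these genes. Of the target factors, Etv1 had 4340 bp in Ezh2-Cko, 3556 bp in Utx-cKO, 4735 bp in Jmjd3-Cko and 4092 bp in Wild type. Etv5 had 2947 bp in Ezh2-Cko, 7631 bp in Utx-cKO, 5431 bp in Jmjd3-Cko and 2944 bp in Wild type. Etv1 had the least cover of its 4 lists in Utx-cKO. The largest Wild type cover among the other ligands was at Fgf7, with 4875 bp in Ezh2-Cko, 7100 bp in Utx-cKO, 5226 bp in Jmjd3-Cko and 7266 bp in Wild type, the most of the 4. Fgf12, an intracellular relative, had 3716 bp in Ezh2-Cko, 7497 bp in Utx-cKO, 2806 bp in Jmjd3-Cko and 3800 bp in Wild type. Of the 44 pathway genes with a peak in both lists, 9 were wider and 0 narrower in Ezh2-Cko, 30 and 0 in Utx-cKO, and 7 and 2 in Jmjd3-Cko. Among all genes with a peak in both lists, the wider share for Utx-cKO was 48.3%, with 19.7% for Ezh2-Cko and 9.48% for Jmjd3-Cko. The narrower share for Utx-cKO was 1.45%, with 3.75% for Ezh2-Cko and 6.98% for Jmjd3-Cko. The pathway counts were not tested against these shares.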

How the data were processed

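Chondrocytes of 4 genotypes gave a ChIP and an input library each. Tools named in the submitters' processing notes are Bowtie2, MACS2, ChIPseeker, deepTools 2.4.1, HOMER 4.10 and FastQC 0.11.5. The genome build is not given in the sources used here. Broad peaks were made by the authors with MACS 2.1.2, per the file headers, in paired-end mode and separately for each ChIP library and its own input, at q of 0.05 and a broad threshold of 0.05, with at most 1 duplicate kept and the larger library scaled down. The deposited lists give, per peak, the pileup signal, −log10 p and −log10 q, the fold enrichment as a ratio to the input, and the length. Pileup was not used, and depth can shift which regions pass the threshold.

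Genes and promoters came from RefSeq tables of GRCm38.p6. Start sites covered were between 55.6% and 61.0% of 21263, and between 3.33% and 7.36% when moved by 20 kb, so positions of this build were used. The table gives unplaced genes under their chromosome, so genes below 3 Mb on chromosomes 1 to 19 and X were left out, Spry3 among them. It has neither exons nor introns. Peaks counted from 1 bp of overlap, and cover is the summed bases of peaks inside the window. Peaks on scaffolds were left out. Percentiles are ranks within 1 list. With n = 1 per genotype no test was made. Members, lists and tests were chosen with earlier results of these data known. One further blood gene is not reported here. Named were all members, the other pathway genes that differ in presence or have no peak, and in each class the 2 with the largest Wild type cover. The steps were tested on simulated data. Alternatives were stricter q and fold enrichment, lists of equal number, merging, other windows, overlap and ranks; a further one, chosen after seeing the data, left out peaks over the start of another gene. Python 3.11.15, numpy 2.4.6, pandas 2.3.3 and matplotlib 3.10.9 were used.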

Additional observations from a re-analysis of the deposited data

How the results depend on the processing

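No paired analysis was possible because each genotype has 1 ChIP library and no test was made. Of 208 summary values under the alternatives, 186 stayed close to the main value and 22 moved; in all of them receptors stayed above ligands in median cover, longest peak and rank. The median percentile of receptors minus that of ligands was 17.3 points in Ezh2-Cko, 8.51 in Utx-cKO, 27.3 in Jmjd3-Cko and 27.0 in Wild type. With q of 0.001 or less it was 29.3 in Ezh2-Cko, 38.4 in Jmjd3-Cko and 41.6 in Wild type, and with fold enrichment of 4 or more 29.1 in Utx-cKO, 56.6 in Jmjd3-Cko and 45.4 in Wild type. Ranked by length it was 7.06 in Ezh2-Cko and 4.41 in Jmjd3-Cko, and by −log10 q 38.3 in Wild type. Among genes with a peak it was 37.1 in Ezh2-Cko, 29.7 in Utx-cKO, 51.8 in Jmjd3-Cko and 50.4 in Wild type. The longest peak of receptors over that of ligands, at the median, was 1.63 in Utx-cKO, and 2.78 with peaks merged; it was 2.58 with no flank, with a flank of 2 kb, with at least 50% of the peak in the window, and without peaks over another start. In Jmjd3-Cko it was 1.26, and 2.14 merged; in Wild type it was 2.42, and 3.83 at fold enrichment of 4. The ratio of median cover in Jmjd3-Cko was 2.51, and 1.66 at q of 0.001. Ligands with a peak in Wild type numbered 5, and 3 at fold enrichment of 4. Of 1200 values of single genes, 247 moved. Among calls of wider or narrower cover 1 turned direction: the cover of Fgf18 in Ezh2-Cko over Wild type was 1.52, and 0.917 with peaks within 3 kb merged, because the gaps between Wild type peaks then count as covered. Of the ratios that passed neither limit, 5 crossed 1 under some alternative, among them Fgfr2 in Ezh2-Cko, with 1.14 as called and 0.715 with equal numbers of peaks, and Fgf10 in Jmjd3-Cko, with 1.21 and 0.758 at fold enrichment of 4. Where no cause is given, the cause was not tested. Each list rests on 1 library pair, and the part of depth in which weak peaks were called was not tested.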
